A study of Mus musculus with 4 samples.

Results

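H3K27ac, the acetylation of lysine 27 of histone H3, was profiled by ChIP-seq in adult mouse heart, and the regions described here are the acetylation peaks that lie at the 3′ ends of protein-coding genes. A peak was taken when its summit lay within 1 kb of the 3′ end of a protein-coding gene record (GENCODE M21, mm10) and the peak lay over 2.5 kb from every annotated transcription start site (TSS). Of the 63061 peaks of the replicated list, 37273 (59.1%) were distal, meaning over 2.5 kb from any TSS, and 654 of these distal peaks (1.75%, 95% exact binomial interval 1.62% to 1.89%) met both conditions. The rule used positions only, and no measured value. The other 36619 distal peaks served as the comparison.

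The hearts came from female B6CASTF1/J mice, a first-generation hybrid of C57BL/6J and CAST/EiJ, aged 2 months, with no treatment and no second group. There are 4 libraries, a pair of technical replicates for either of 2 biological replicates. The material behind a biological replicate was pooled from 2 heart biosamples, and both pools carry 1 donor identifier in the labels, so the spread between them may be technical. Whole heart is a mixture of cell types, so more cells of a type and more acetylation per cell cannot be told apart. Peaks lay within 1 kb of a TSS for 5 of 5 cardiomyocyte markers, 5 of 5 endothelial, 5 of 5 fibroblast and 4 of 5 smooth muscle and pericyte markers (all but Myh11), and for 0 of 4 macrophage, 0 of 2 hepatocyte, 0 of 2 neuron and 0 of 2 skeletal muscle markers. The same was true of 56.8% of all protein-coding gene records. The marker panels are short, and other genes typical of the cell types without a marker peak did have such a peak. Examples are C1qb and C1qc (macrophage and blood), Ass1 and Trf (liver), Camk2a and Dlg4 (neuron) and Casq1 (skeletal muscle).

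H3K27ac marks active promoters and active enhancers, and is deposited by the acetyltransferases p300 and CBP. An enhancer can lie before, inside or behind the gene it acts on, and acetylation behind a gene may serve that gene, its neighbour or a transcript that starts there. The 3′ end of a protein-coding gene holds the last coding exon, the 3′ untranslated region (UTR) and the cleavage and polyadenylation site, where the transcript is cut. No deposited value says which gene a peak acts on, so the gene at whose 3′ end a peak lies is called its host only by position.

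Sequence is shown first for the peaks on which the base composition result below turns. The first 5 are among the 10 strongest 3′ end peaks by the deposited fold and are rich in CpG dinucleotides, and the next 5 are the strongest 3′ end peak and 4 peaks behind heart and smooth muscle genes, which are poor in them. Each run is 121 bases of mm10 centred on the summit, read 5′ to 3′ on the strand of the host gene, with every CG dinucleotide in capitals. The windows of Tmem44 (chr16:30510795-30510915, minus strand), Shf (chr2:122348749-122348869, minus strand) and Fam120a (chr13:48878491-48878611, minus strand) lie outside annotated exons. Those of Pomc (chr12:3960157-3960277, plus strand) and Gm5737 (chr7:120830993-120831113, plus strand) lie wholly within coding sequence.
Tmem44: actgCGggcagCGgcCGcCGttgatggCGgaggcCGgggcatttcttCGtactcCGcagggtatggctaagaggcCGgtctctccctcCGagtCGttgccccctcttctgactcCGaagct
Shf: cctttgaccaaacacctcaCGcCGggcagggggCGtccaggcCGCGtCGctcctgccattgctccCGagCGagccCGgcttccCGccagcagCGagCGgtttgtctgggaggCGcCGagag
Fam120a: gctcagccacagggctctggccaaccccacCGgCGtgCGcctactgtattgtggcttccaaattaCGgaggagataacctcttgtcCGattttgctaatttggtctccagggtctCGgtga
Pomc: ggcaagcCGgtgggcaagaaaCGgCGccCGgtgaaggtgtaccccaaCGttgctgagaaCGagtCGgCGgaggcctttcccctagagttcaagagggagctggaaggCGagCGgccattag
Gm5737: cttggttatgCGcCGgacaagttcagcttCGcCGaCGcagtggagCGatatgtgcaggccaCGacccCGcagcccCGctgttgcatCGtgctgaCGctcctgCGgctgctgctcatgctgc

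These 5 windows hold 12, 14, 6, 10 and 12 CG dinucleotides in the order printed. The comparison windows, of Mknk2 (chr10:80664841-80664961), Myh11 (chr16:14194251-14194371), Kcnj5 (chr9:32314489-32314609), Csrp3 (chr7:48830068-48830188) and Nkx2-5 (chr17:26837702-26837822), are on the minus strand and outside exons. They hold 2, 0, 0, 0 and 3.
Mknk2: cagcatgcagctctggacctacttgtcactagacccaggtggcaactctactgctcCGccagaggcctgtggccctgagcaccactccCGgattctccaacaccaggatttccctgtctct
Myh11: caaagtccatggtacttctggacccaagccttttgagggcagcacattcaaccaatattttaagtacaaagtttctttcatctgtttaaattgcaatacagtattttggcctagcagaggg
Kcnj5: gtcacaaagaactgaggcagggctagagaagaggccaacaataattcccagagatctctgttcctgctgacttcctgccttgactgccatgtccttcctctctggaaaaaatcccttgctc
Csrp3: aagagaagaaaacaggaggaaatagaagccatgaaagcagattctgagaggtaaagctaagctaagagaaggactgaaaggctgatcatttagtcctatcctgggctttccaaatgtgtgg
Nkx2-5: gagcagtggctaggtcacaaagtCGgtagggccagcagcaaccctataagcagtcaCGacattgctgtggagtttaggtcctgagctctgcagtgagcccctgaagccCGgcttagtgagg

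Distal peaks were about as dense at gene 3′ ends as from 5 to 10 kb inside genes and from 2 to 5 kb downstream. They were somewhat denser there than from 5 to 10 kb downstream. Counting only sequence over 2.5 kb from any TSS, distal peaks within 1 kb of a 3′ end had a density of 23.2 per Mb (652 peaks in 28.1 Mb, in 1 kb bins that leave out 2 peaks at the outer edge). The density was 22.3 per Mb from 5 to 10 kb inside genes and 22.7 per Mb from 2 to 5 kb downstream. The ratio of the 3′ end to these zones was 1.04 (95% exact conditional binomial interval 0.943 to 1.14) and 1.02 (0.919 to 1.13), so neither difference exceeded counting error. Against 5 to 10 kb downstream, the main comparison zone, where the density was 20.2 per Mb, the ratio was 1.14 (1.04 to 1.26), beyond counting error. All distal sequence of the genome, gene deserts included, held 15.7 peaks per Mb. Intervals here and below cover the counting of peaks or genes only, since peaks and genes are not replicates of a condition.

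**Figure D1:**
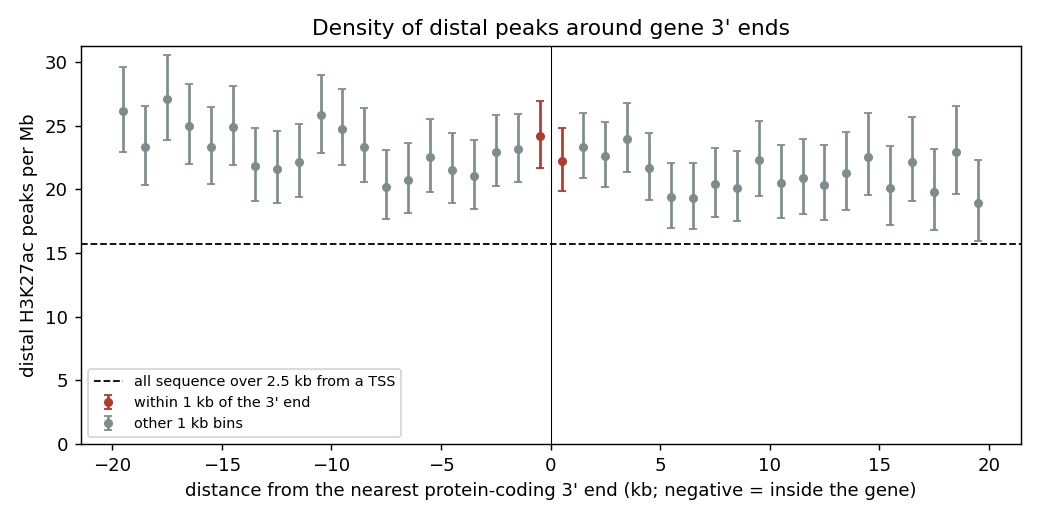
Density of distal H3K27ac peaks (y axis, peaks per Mb of sequence over 2.5 kb from any TSS) in 1 kb bins by distance from the nearest protein-coding 3′ end (x axis, kb, negative inside the gene). Points are densities of the replicated list, bars are 95% Poisson intervals and the dashed line is the 15.7 per Mb of all such sequence; the red bins within 1 kb of the 3′ end lie among their neighbours.

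Within the window the summits were spread evenly. From 1000 bp inside to 1000 bp downstream, in steps of 250 bp, the 654 peaks fell into groups of 84, 95, 88, 68, 80, 69, 76 and 94. The summit lay inside the host in 335 peaks (51.2%, 47.3% to 55.1%) and downstream of it in 319. The peak itself covered the 3′ end base in 229 cases (35.0%), and 34 summits lay within 1 kb of the 3′ ends of at least 2 genes. The nearest protein-coding TSS belonged to a gene other than the host in 242 cases (37.0%), and over all members the nearest one lay a median of 8.1 kb from the summit. Just inside the 1 kb limit were the peaks of Tmem44 (1000 bp, fold 24.3), Hs1bp3 (1000 bp, fold 9.48) and Gsto2 (999 bp, fold 4.73), and just outside it those of Tbx2 (1003 bp, fold 3.32), Add3 (1004 bp, fold 3.24) and Mogat2 (1007 bp, fold 3.81). Tbx2, a T-box repressor of the developing heart, also has a 3′ end peak inside the limit, with its summit 22 bp inside the gene.

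By annotation at the summit, 254 peaks (38.8%) lay in a UTR, 49 (7.49%) in coding sequence, 9 (1.38%) in a non-coding exon, 89 (13.6%) in an intron of any gene and 253 (38.7%) between genes. Among the other distal peaks 1.03% lay in a UTR, 1.09% in coding sequence and 63.1% in introns. The rule fixes most of this contrast, since a 3′ end is where UTR sequence lies.

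Replication of 3′ end peaks was close to that of other distal peaks. A peak was counted as matched when it overlapped a peak of the list of a single biological replicate by at least 1 bp. Of the 654 peaks, 476 (72.8%) were matched in the replicate 1 list, 571 (87.3%) in the replicate 2 list and 442 (67.6%) in both. A further 34 were matched in the replicate 1 list alone, 129 in the replicate 2 list alone and 49 (7.49%) in neither. Over all distal peaks 66.2% were matched in both lists, and 3′ end peaks exceeded the other distal peaks by 1.36 percentage points (Newcombe interval −2.35 to 4.87). The interval includes 0.

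Width and fold of 3′ end peaks did not differ from those of other distal peaks beyond the intervals of the medians. The fold is the authors' own value for each peak, and is used only to rank or describe peaks within 1 list. The median width was 576 bp (526 to 622, order-statistic interval) against 577 bp (571 to 583), and the median fold was 4.08 (3.84 to 4.27) against 3.89 (3.89 to 3.91). Widths ran from 178 to 6090 bp and folds from 1.93 to 26.8. Peaks in coding sequence had a median fold of 4.55 (3.85 to 5.59, n = 49) at 3′ ends and 3.89 (3.70 to 4.12, n = 398) elsewhere, with overlapping intervals. Another peak lay within 1 kb of 59.9% of 3′ end peaks and 60.9% of the others. In 66 cases (10.1%) the host had no other peak over its gene record.

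**Figure D2:**
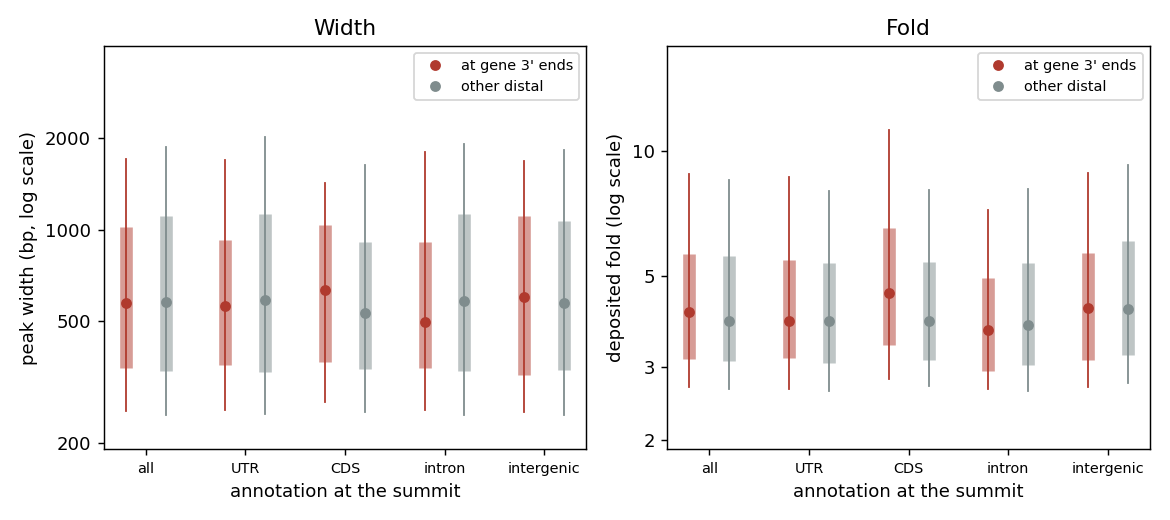
Peak width (left, bp, log scale) and deposited fold (right, log scale) of 3′ end peaks (red) and other distal peaks (grey), for all peaks and by annotation at the summit. Points are medians, thick bars the middle 50% and thin bars run from the 10th to the 90th percentile; over all peaks the medians are 576 and 577 bp in width and 4.08 and 3.89 in fold.

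The strongest 3′ end peak lay behind Mknk2, the gene of a kinase that phosphorylates the translation initiation factor eIF4E. It spanned chr10:80662891-80667611 (4721 bp), with its summit 426 bp downstream of the gene. Its fold was 26.8 in the replicated list, 23.9 in the replicate 1 list and 31.1 in the replicate 2 list. The nearest protein-coding TSS, that of Mknk2 itself, was 7075 bp from the summit, and the Mknk2 promoter had a peak as well.

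Pdcd1lg2 came next in fold. This gene of a ligand of the inhibitory T-cell receptor PD-1 had a peak of 4618 bp in its 3′ UTR with a fold of 24.7 (21.7 in the replicate 1 list, 27.9 in the replicate 2 list) and no promoter peak. Lag3, the gene of an inhibitory receptor of lymphocytes, had a peak 245 bp downstream with a fold of 18.8 (15.5 and 22.8), no promoter peak and no other peak over the gene. Ticam1, the gene of an adaptor of Toll-like receptors, had a 3′ UTR peak with a fold of 18.8 (14.8 and 22.7) and a promoter peak. Of the 24 genes of the list of macrophage and blood genes, none had a 3′ end peak, and C1qb and C1qc are examples with a promoter peak and no 3′ end peak. The interval for 0 of 24 reaches 14.2%. It includes the 3.51% of all protein-coding genes eligible by the rule given below, so no difference was shown.

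Further strong peaks lay behind or at the ends of Tmem44 (fold 24.3 in the replicated list), Shf (23.5), C87436 (23.4), Gm5737 (21.3), Fam120a (18.8) and Pomc (18.7). The Shf peak had its summit 83 bp behind this SH2-domain adaptor gene, and the next gene, Duox1, ends 920 bp away from the other side. Pomc, the gene of the precursor of corticotropin and the melanocortins, had its peak in the last coding exon, 425 bp inside the gene, with a fold of 16.5 in the replicate 1 list and 21.9 in the replicate 2 list. The Pomc record had no promoter peak and no other peak. In Gm5737 the folds were further apart, 13.8 in the replicate 1 list and 27.7 in the replicate 2 list, and the gene likewise had no promoter peak. All 10 strongest peaks had the higher fold in the replicate 2 list; the lists were called separately from libraries of unknown depth, so no difference between the replicates is drawn from this.

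**Figure D3:**
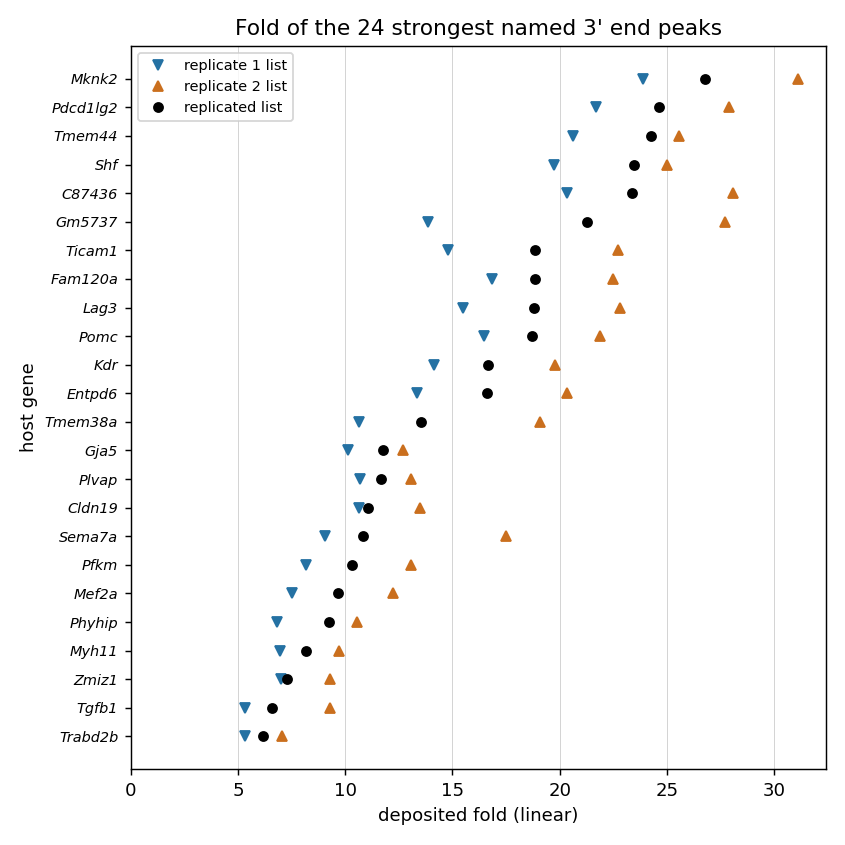
Deposited fold (x axis, linear) of the 24 strongest named 3′ end peaks, 1 per host gene (y axis), in the replicated list (black circles), the replicate 1 list (blue, pointing down) and the replicate 2 list (orange, pointing up). Each marker is the authors' value for the peak or the strongest overlapping peak; Mknk2 leads with 26.8 in the replicated list, and replicate 2 values lie to the right of replicate 1 values.

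The widest 3′ end peaks lay at Entpd6 (6090 bp), Sema7a (5768 bp), Zmiz1 (5591 bp), Mknk2 (4721 bp), Cldn19 (4683 bp), Pdcd1lg2 (4618 bp), Phyhip (4105 bp), Tmem38a (4096 bp), Mef2a (3376 bp) and Plvap (3339 bp). Tmem38a encodes a cation channel of the sarcoplasmic reticulum. Its peak had a fold of 13.6 and its summit 492 bp downstream, and it covered the start of the predicted RefSeq transcript Gm51538. Plvap, a gene of the diaphragms of endothelial fenestrae and caveolae, had peaks on both sides of its end, 925 bp downstream with a fold of 11.7 and 604 bp inside with a fold of 5.31, and no promoter peak by the 1 kb rule. Zmiz1, the gene of a transcriptional coregulator, had 58 other peaks over its record, against a median of 3 for the hosts of all 654 peaks.

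Most hosts had a single 3′ end peak and 6 had 3, the most of any gene. Among these, the peaks of Trabd2b, a regulator of Wnt proteins, had folds of 6.16, 5.50 and 3.32. Those of Tgfb1, the gene of the growth factor TGF-beta 1, had folds of 6.57, 3.89 and 3.40, and those of Cdc42ep4, an effector of the GTPase Cdc42, had folds of 5.78, 3.79 and 3.51. The 3 peaks of Prcd had folds of 3.51, 3.13 and 2.94, and those of Slc4a10 had 3.71, 2.55 and 2.42. None of the Prcd and Slc4a10 peaks was matched in the replicate 1 list. The Tgfb1 peak of fold 3.89 and the Cdc42ep4 peaks of 3.79 and 3.51 were also without a match there. Such neighbouring peaks can overlap the same wider peak of a single-replicate list, so they are not separate evidence of replication.

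Genes of the heart muscle program were among the hosts. The lists of sarcomere and Z-disc genes, calcium handling and electrical genes, cardiac transcription factors and energy metabolism genes had 17 hosts among 122 eligible genes (13.9%, 8.33% to 21.4%). Eligible means that some sequence within 1 kb of the gene's 3′ end lay over 2.5 kb from every TSS, and 603 of the 17172 eligible protein-coding genes (3.51%) were hosts. With the same rule applied to points moved along the gene, these lists had 9 of 98 genes with a peak (9.18%) at 5 kb inside, 11 of 106 (10.4%) at 10 kb inside, 11 of 115 (9.57%) at 5 kb downstream and 10 of 119 (8.40%) at 10 kb downstream. Over all genes the shares at these points were 3.20%, 3.56%, 3.38% and 3.56%. The intervals of these shares overlap that of the 3′ end, and the share at the 3′ end was not shown to differ from those at the moved points. With peaks above the median fold of the list alone, 5 of the 17 genes kept a 3′ end peak (4.10% of the 122), while hosts among all eligible genes fell from 603 to 263 (1.53%). The lists of macrophage and blood, liver, neuron and skeletal muscle genes had 1 host among 88 genes (1.14%, 0.0288% to 6.17%), an interval that includes 3.51%. This count was 3 in the replicate 1 list, 2 in the replicate 2 list and 3 with a 2 kb window. At the moved points these lists had 0 of 74 genes with a peak at 5 kb inside and 3 of 71 (4.23%) at 10 kb inside. Downstream they had 1 of 81 (1.23%) at 5 kb and 4 of 88 (4.55%) at 10 kb.

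Among the sarcomere and Z-disc genes 5 of 32 were hosts: Csrp3, Lmod2, Myom1, Tnnc1 and Xirp1. Xirp1, which encodes an actin-binding protein of the intercalated disc, had a fold of 4.34 in the 3′ UTR, with 4.39 in the replicate 1 list and 2.52 in the replicate 2 list. Lmod2, the gene of leiomodin that sits at thin filament ends, had a fold of 4.38 in the last part of its coding sequence. Csrp3, which encodes the muscle LIM protein, had a peak 270 bp downstream (fold 4.27, with 4.28 in the replicate 1 list and 5.64 in the replicate 2 list) and another 854 bp inside (fold 3.49). Tnnc1 (fold 3.22) and Myom1 (fold 2.94), for cardiac troponin C and an M-band protein, were matched in the replicate 2 list and not in the replicate 1 list. Actc1 and Actn2 had a promoter peak and no 3′ end peak.

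Of the calcium handling and electrical genes 4 of 28 were hosts. Gja5, which encodes the gap junction protein of atrial muscle and the conduction system, had a fold of 11.8 in its 3′ UTR, 881 bp inside (10.1 in the replicate 1 list and 12.7 in the replicate 2 list). Kcnj5, for a subunit of the acetylcholine-activated potassium channel, had a fold of 6.06 at 158 bp downstream (5.17 and 7.44). Casq2, for the calcium buffer of the sarcoplasmic reticulum, had a fold of 3.98 at 578 bp downstream. These 3 also had a promoter peak. Kcne1, the gene of a potassium channel regulatory subunit, is on none of the lists and was picked out after its values were seen; it had peaks 331 bp inside and 414 bp downstream with folds of 13.5 and 9.48, and no promoter peak.

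The cardiac transcription factors had 5 hosts of 28. Mef2a, a MADS-box factor of muscle, had a peak of 3376 bp with its summit 171 bp downstream and a fold of 9.67 (7.50 in the replicate 1 list and 12.2 in the replicate 2 list). Nkx2-5, the homeobox factor of cardiac muscle, had a peak 902 bp downstream with a fold of 4.17. The overlapping peaks had folds of 3.92 in the replicate 1 list and 8.66 in the replicate 2 list. With the rule applied to either of these lists alone, Nkx2-5 was not a host. Ppara, the nuclear receptor of fatty acid oxidation genes, had a fold of 4.17 at 598 bp downstream. Mef2d (fold 3.28) and Nfia (fold 3.09) had weaker peaks. Energy metabolism genes had 3 hosts of 34. Pfkm, the muscle phosphofructokinase, reached a fold of 10.3, in the last part of its coding region. Lpl, the lipoprotein lipase gene, had a fold of 2.00 and was matched in neither single-replicate list.

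Lists of other cell types of the heart had 1 host of 29 genes (endothelial, 3.45%), 3 of 30 (fibroblast and matrix) and 3 of 20 (smooth muscle and pericyte, 15.0%), the last 2 shares within the range of the heart muscle lists. The interval of the endothelial share (0.0873% to 17.8%) includes the 3.51% of all eligible genes. At the moved points 8 of 28 endothelial genes (28.6%, 13.2% to 48.7%) had a peak at 10 kb inside and 3 of 27 at 5 kb inside. Downstream 3 of 30 had one at 5 kb and 3 of 30 at 10 kb. These intervals overlap that of the 3′ end. The endothelial host was Kdr, the main receptor of VEGF. Its peak lay in the 3′ UTR 715 bp inside, with a fold of 16.7 (14.1 in the replicate 1 list and 19.8 in the replicate 2 list). Aplnr and Cdh5 had a promoter peak and no 3′ end peak. Of 20 smooth muscle and pericyte genes 3 were hosts. Myh11, the smooth muscle myosin heavy chain, had a fold of 8.17 at 224 bp downstream (6.94 and 9.69), although no peak lay within 1 kb of its TSSs. Lmod1, the smooth muscle leiomodin, had a fold of 4.59 and a peak of 227 bp matched only in the replicate 2 list, and Vcl, for the adhesion protein vinculin, had a fold of 3.84. Of 30 fibroblast and matrix genes Cygb (4.36), Sparc (2.83) and Lum (2.84) were hosts by these folds. The Lum peak was matched in neither single-replicate list.

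In the clock list 3 of 22 genes were hosts: Per1 (fold 5.16), Bhlhe40 (3.81) and Nr1d1 (3.32). The Per1 and Nr1d1 peaks were matched in the replicate 2 list alone. Of 26 immediate early and stress genes, Klf6 had peaks 775 bp inside (fold 5.99) and 810 bp downstream (4.71), and Klf10 had a fold of 2.65 and no match in either single-replicate list. Of 11 ribosome and translation genes Eif4g2 (4.24) and Eef1a2 (2.99) were hosts. None of 24 liver and 22 neuron genes was a host, and of 18 skeletal muscle genes only Tnnt1 was, with a fold of 3.32 and a promoter peak. Each of these lists is small: the interval for 0 of 24 genes reaches 14.2%. The interval of every list in this paragraph includes the 3.51% of all eligible genes.

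**Figure D4:**
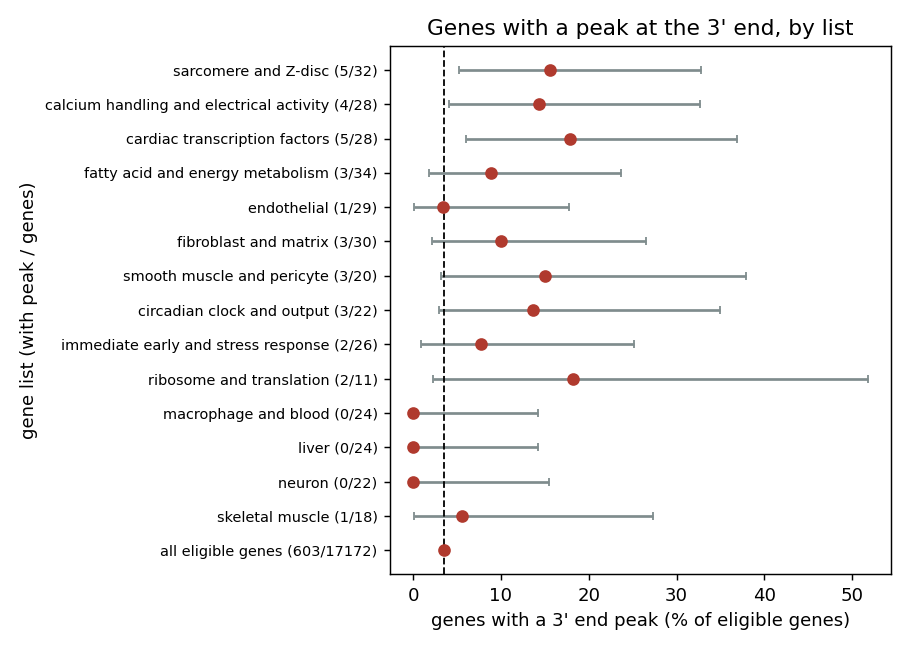
Share of eligible genes with a 3′ end peak (x axis, percent) in each gene list (y axis, with the number of hosts and of eligible genes), in the replicated list. Bars are 95% exact binomial intervals and the dashed line is the 3.51% of all eligible genes; ribosome and translation genes (2 of 11, 18.2%) have the highest share, followed by cardiac transcription factors (5 of 28), sarcomere genes (5 of 32) and smooth muscle genes (3 of 20), and 3 lists have no host.

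Hosts more often had an acetylated promoter than other genes. At their own TSSs, within 1 kb, a peak was found for 483 of 603 hosts (80.1%) and for 9372 of 16569 other eligible genes (56.6%), a difference of 23.5 percentage points (20.1 to 26.6), where 57.4% of all eligible genes had one. Read the other way, 4.90% of genes with a promoter peak and 1.64% of genes without one had a 3′ end peak. A difference in the same direction was found away from the 3′ end. For genes with a distal peak within 1 kb of a point 5 kb inside it was 29.4 points, at 10 kb inside 33.6, at 5 kb downstream 29.7, at 10 kb downstream 25.4 and at 20 kb downstream 19.0. In genes of up to 5 kb, 4.13% of those with a promoter peak and 0.797% of those without were hosts, and in genes over 100 kb these shares were 4.51% and 2.70%. Over all hosts with and without a promoter peak the median fold of the 3′ end peaks was 3.98 (3.73 to 4.27, n = 534) and 4.21 (3.83 to 4.56, n = 120), and did not differ beyond these intervals.

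Hosts more often faced the end of another gene, in counts that make no allowance for how much sequence was eligible. The 2.5 kb rule removes sequence around the start of a close neighbour on the same strand. Genes with such a neighbour thus had less sequence in which a 3′ end peak could lie. How far this adds to the differences below was not tested. The next protein-coding gene behind the 3′ end was convergent, on the opposite strand, for 313 of 603 hosts (51.9%) and for 44.8% of the other eligible genes, a difference of 7.13 percentage points (3.07 to 11.2). Within 10 kb a convergent neighbour followed in 28.2% and 20.3% (difference 7.87, 4.37 to 11.6), and a neighbour on the same strand in 15.3% and 15.6% (difference −0.387, −3.09 to 2.75). A peak between convergent ends can make both genes hosts, which adds to both convergent counts. Counting peaks instead, 324 of 654 (49.5%) had a convergent gene next to their nearest host. It lay within 10 kb for 160 of 654 (24.5%, 21.2% to 27.9%). Examples are Myh11, whose neighbour Nde1 ends 1607 bp behind it, Csrp3 with Zdhhc13 at 2958 bp and Pfkm with Asb8 at 2186 bp.

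The 3′ end peaks differed from other distal peaks in GC content and in the share of windows rich in CpG. Within 150 bp of the summit, the median GC content was 49.8% (49.2% to 50.5%) against 46.8% (46.8% to 47.2%). The median ratio of observed to expected CpG was 0.205 (0.193 to 0.226) against 0.199 (0.197 to 0.201), with overlapping intervals. Windows with a GC content of at least 50% and an observed to expected CpG ratio of at least 0.6 are called CpG-rich here. There were 27 such windows among the 654 (4.13%, 2.74% to 5.95%), 1.08% among the other distal peaks and 16.5% among all replicated peaks, promoters included. Of eligible 3′ ends regardless of acetylation, 0.419% of windows centred on the end, 1.26% of those centred 500 bp inside and 0.501% of those centred 500 bp downstream were CpG-rich.

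The CpG-rich peaks had higher folds than the rest. Their median fold was 7.87 (4.64 to 15.1, n = 27) against 3.98 (3.79 to 4.17, n = 627) for the rest. Matched in both single-replicate lists were 24 of the 27 (88.9%) and 66.7% of the rest. Among other distal peaks the shares were 81.6% of the CpG-rich ones and 66.1% of the others. Of the 10 strongest 3′ end peaks 5 were CpG-rich, namely those whose sequence is printed first above. Shf had a GC content of 71.1% and a CpG ratio of 1.03, and Pomc 65.4% and 0.798. Mknk2, the strongest peak, had 51.5% and 0.258, and Csrp3 42.9% and 0.151. Among other distal peaks too the CpG-rich ones had the higher median fold, 6.56 (6.07 to 7.30, n = 396) against 3.89.

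Coding exons held 14 of the 27 CpG-rich peaks, sequence between genes 10 and UTRs 3. Within coding sequence 14 of 49 3′ end peaks (28.6%) and 9.30% of other distal peaks were CpG-rich, a difference of 19.3 percentage points (8.07 to 33.3). Between genes the shares were 3.95% and 1.94% (difference 2.02, 0.206 to 5.19), in UTRs 1.18% and 0.796% (0.385, −1.32 to 2.68), and in introns 0 of 89 and 0.476%. The contrast thus exceeded counting error in coding exons and between genes, and not in UTRs or introns.

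**Figure D5:**
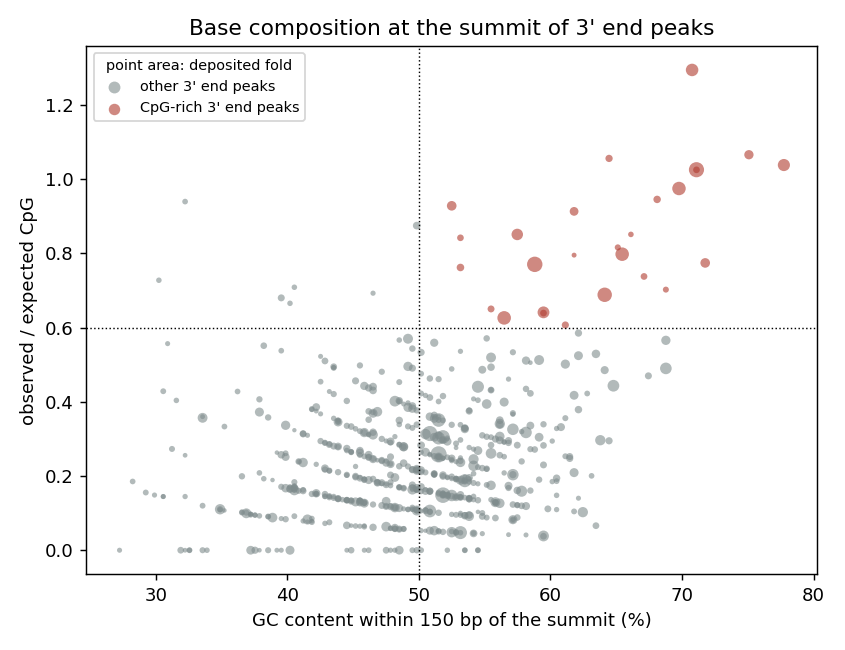
GC content (x axis, percent) and observed to expected CpG ratio (y axis) within 150 bp of the summit of each 3′ end peak, with point area in proportion to the deposited fold. Dotted lines mark 50% and 0.6; the 27 CpG-rich peaks (red) lie at upper right and include 5 of the 10 strongest.

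Annotated starts were few at these peaks. GENCODE starts are excluded by the rule, so RefSeq transcript starts on the same assembly were used: 15 of 654 peaks (2.29%) lay within 1 kb of one, against 4.34% of the other distal peaks, a difference of −2.05 percentage points (−2.97 to −0.576). Of the 15, 2 were within 1 kb of a curated RefSeq start, and 1 of these, at Sf3b5 (fold 7.87), was CpG-rich. For curated starts alone the shares were 0.306% of 3′ end peaks and 0.371% of other distal peaks. That difference (−0.0656 percentage points, −0.298 to 0.739) did not exceed its interval. None of the 10 strongest peaks lay within 1 kb of a RefSeq start, which allows a share of up to 30.8%, while 3 of the 50 strongest and 7 of the 163 strongest (4.29%) did. Of the 9155 strongest other distal peaks 6.82% did, a share within the interval for the 163 strongest 3′ end peaks (1.74% to 8.65%). The nearest was 8570 bp from the Tmem44 peak, 17594 bp from Shf, 7072 bp from Fam120a and 4607 bp from Pomc.

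Of 18 sequence motifs searched within 150 bp of the summit on both strands, 1 differed between 3′ end peaks and other distal peaks beyond its interval. The GC box GGGCGG, bound by SP and KLF factors, was present in 66 windows (10.1%) against 4.80%, a difference of 5.29 percentage points (3.20 to 7.85), and in 15.2% of all replicated peaks. It holds a CG dinucleotide and so overlaps the measure of composition above. The share was higher at 3′ ends in the 4 annotation classes compared (the 9 peaks in non-coding exons were not), at 24.5% against 13.1% in coding sequence, 8.66% against 3.98% in UTRs, 8.99% against 4.26% in introns and 9.49% against 5.58% between genes, and each of these 4 intervals excluded 0. Of eligible 3′ ends in general, 3.55% of windows centred on the end, 5.08% of those centred 500 bp inside and 3.93% of those centred 500 bp downstream held it.

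Within 150 bp of the summit, the shares of motifs of muscle and heart factors did not differ beyond their intervals. The MEF2 site was found in 5.05% of 3′ end peaks and 5.37% of other distal peaks (difference −0.323, −1.77 to 1.65). The corresponding shares were, for the NKX2 core AAGTG, 54.7% and 53.5% (difference 1.22, −2.64 to 5.03), for the GATA site AGATAA, 13.9% and 15.7% (−1.82, −4.29 to 1.07), and for the TEAD site GGAATG, 19.3% and 17.2% (2.06, −0.810 to 5.28). For the T-box site they were 17.3% and 14.6% (2.72, −0.00574 to 5.83), an interval that only just includes 0. Within 50 bp of the summit the GATA share was lower at 3′ ends, 3.36% against 5.06% (−1.69, −2.85 to −0.00246). The polyadenylation signal AATAAA, on either strand within 150 bp, was present in 29.5% and 26.7% (difference 2.84, −0.562 to 6.47). These matches describe the letters of the windows and say nothing of what is bound there.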

How the data were processed

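The sources are 4 deposited peak lists of H3K27ac on mm10: 1 of replicated peaks from both biological replicates (63061 peaks), 1 of pseudoreplicated peaks from both (63494), and 1 each for replicate 1 (55831) and replicate 2 (61333), per the deposited text files. Technical replicates were joined before the lists were made, so there is no value per library. The deposited fold of a peak is a ratio made by the authors, taken to be over a control because of its place in this file format. The deposited −log10 q is also the authors' own, and the summit offset is another deposited value, in bp from the peak start. The aligner, peak caller and read number were not given in the sources used here. Depth is therefore unknown. The mice are hybrids and the positions are of the mm10 reference. Whether strain variants moved any peak was not tested.

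Gene records, exons and TSSs came from GENCODE M21, and sequence and further transcript starts from RefSeq on GRCm38, the assembly of mm10. For the 2.5 kb rule and for RefSeq starts, distance to a TSS was taken from the nearest peak edge; the printed distances to the nearest protein-coding TSS are from the summit. Shares have exact (Clopper-Pearson) intervals, differences of shares Newcombe intervals, density ratios exact conditional binomial intervals and medians order-statistic intervals, at 95%. The density and interval code was tested on simulated peaks. The regions, the 14 gene lists and the 18 motifs were chosen with earlier results of these data known, and the CpG-rich threshold, the RefSeq starts, the moved windows and the neighbour counts were added after the lists had been read. Named genes are the hosts of the 10 strongest and 10 widest peaks matched in both single-replicate lists, 5 hosts with the most peaks (ties by summed width), up to 3 of the strongest per gene list, up to 2 genes per list with a promoter peak and no 3′ end peak in alphabetical order, and the 3 peaks on each side of the 1 kb limit; others serve as examples of a count. 1 gene that the rule would name is not reported here. Alternatives were other windows, TSS limits, 3′ ends, peak lists, thresholds, overlaps and comparison zones. Python 3 was used with the numpy, scipy, pandas and matplotlib libraries.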

Additional observations from a re-analysis of the deposited data

How the results depend on the processing

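The number of 3′ end peaks followed its definition: 305 with a 500 bp window, 1275 with 2 kb, 414 at over 5 kb from a TSS, 1093 with the ends of all protein-coding transcripts and 251 among peaks above the median fold, against 654. Their share of distal peaks was 0.818% at 500 bp, 3.42% at 2 kb, 2.04% at over 1 kb from a TSS, 1.36% at over 5 kb, 2.93% with transcript ends and 1.55% without 3′ ends inside another gene. The share of eligible genes was 1.86% at 500 bp, 6.13% at 2 kb, 3.84% with the TSS distance taken from the summit, 5.03% with transcript ends, 1.53% above the median fold, and 3.02% to 3.59% with 1 replicate left out. The density ratio to 5 to 10 kb downstream was 1.06 (0.905 to 1.24) above the median fold, and 1.04 and 1.02 against the other zones. In the other definitions and lists it ran from 1.10 to 1.20, with intervals above 1. Its 500 bp window was not run, as bins were 1 kb wide. With sequence within 50 bp of the summit 3 motifs differed beyond their intervals in place of 1. The GC box and the ETS site were more frequent at 3′ ends and the GATA site less frequent. The 4 heart muscle lists, under alternatives chosen after seeing the data, had 26 hosts at 2 kb and 5 above the median fold, against 17. With either replicate left out they had 15, which were not all among the 17. Without replicate 2, Myom1, Nfia, Nkx2-5 and Tnnc1 were lost and Cs and Fabp3 entered. Without replicate 1, Casq2, Cpt1b, Lpl and Nkx2-5 were lost and Fabp3 and Irx4 entered. The cause of these shifts beyond the changed definition was not tested. The promoter difference ran from 18.4 to 26.9 percentage points over its alternatives. The ratio of median widths (0.998) ran from 0.892 to 1.02 and that of median folds (1.05) from 0.964 to 1.07, both lowest above the median fold, where the medians themselves were 1105 bp and 6.26; in the replicate 2 list they were 759 bp and 4.64. The replication difference ran from −1.01 to 3.53 percentage points and the share inside the host from 49.2% to 53.5%. Depth is unknown, and no paired analysis was possible because there is 1 group.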
